A study of Rattus norvegicus and Mus musculus with 22 samples.

Results

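The metalloproteinases and their inhibitors were taken as every gene whose symbol is Mmp or Timp followed by a digit, or Adam or Adamts followed by a number alone, except Adamts13. They made up 66 of the 23940 gene symbols in 3 rat count tables, with 21 Mmp, 4 Timp, 23 Adam and 18 Adamts genes. The 46 genes with a mean of at least 0.5 CPM in any group (CPM are counts scaled to a library total of 1000000) are described here, 14 of them Mmp, 4 Timp, 12 Adam and 16 Adamts. Nearest to that limit were Mmp7 (highest group mean 0.503 CPM) and Adamts18 (0.802 CPM) among those kept, and Adam22 (0.38 CPM) and Adamts20 (0.283 CPM) among those not kept. Of the other 20 genes, 8 had 0 counts in every library (Mmp1, Mmp1b, Mmp20, Mmp27, Adam7, Adam21, Adam24 and Adam34), where the limit that a count of 0 allows, taken as 3 counts, was 0.127 to 0.261 CPM per library for counting error only. The remaining 12, among them the stromelysins Mmp3 and Mmp10, had at least 1 count. Adam34 was listed in the day 7 tables alone and Adam6 in the day 56 table alone.

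Matrix metalloproteinases (MMPs) are zinc proteases that cut collagens, elastin and other matrix proteins, and several of them are anchored in the cell membrane. Tissue inhibitors of metalloproteinases (TIMPs) bind their active sites, and TIMP2 together with membrane-bound MMP14 also takes part in the activation of MMP2. ADAM proteases sit in the cell membrane and release the outer parts of cytokines, growth factors and receptors, among them TNF and the IL-6 receptor, while the secreted ADAMTS proteases trim procollagens, versican, aggrecan and other matrix molecules. In pulmonary hypertension the walls of small lung arteries thicken and their matrix is rebuilt, which is the setting in which these enzymes are studied.

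The libraries came from rats of the Sugen-hypoxia (SuHx) model of pulmonary hypertension, in which blockade of VEGF receptors is combined with low oxygen. Each of the 4 lung groups, WT (wild type) and IL6KO (Il6 knockout) at day 7 and the same genotypes at day 56, held 3 libraries of whole lung. The other 4 libraries were CD4-positive lung cells taken at day 7 with magnetic beads (MACS), 2 from WT and 2 from IL6KO rats. All 16 libraries came from SuHx animals, so there was no untreated lung, and the labels used here give no strain, sex or age, do not describe the Il6 allele and do not say whether libraries came from separate animals. The p-values therefore measure only the spread between these libraries, which may be technical.

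Lung libraries of day 7 held 15011692 to 23590070 counts, those of day 56 held 14415060 to 22961232, and the CD4 isolates held 11477533 to 12930732. Il6 itself had 0 to 11 counts per lung library in both genotypes, and 48 and 20 counts in the WT and 8 and 17 in the IL6KO CD4 isolates, so its counts did not separate the genotypes in lung. The T cell markers Cd3d, Cd3e, Cd3g, Cd4, Cd2 and Cd5 summed to 1907 to 2160 CPM in the CD4 isolates and to 35.4 to 53.6 CPM in day 7 lung. The same isolates held macrophage markers at 1576 to 2758 CPM and alveolar epithelial markers at 528.7 to 2168 CPM, so they were not T cells alone. In lung the 5 listed fibroblast markers summed to 425.1 to 688.4 CPM and the endothelial markers to 1972 to 2730 CPM. The third WT library of day 56 stood apart, since leaving it out raised the genes called between genotypes at day 56 from 2 to 1268 (8.63% of all genes tested). The counts of members called by edgeR in comparisons that use it, and the named members whose call it decided, are given with and without it. Counts of members by DESeq2, at an unadjusted p or without overlap between groups are given with all libraries only.

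At least 0.5 CPM was reached by 45 of the 65 listed members in each day 7 lung group, by 42 in WT and 44 in IL6KO lung at day 56, and by 35 in WT and 31 in IL6KO CD4 isolates. At a mean of at least 10 CPM the counts were 30 in each day 7 lung group, 26 and 28 at day 56, and 13 and 10 in the CD4 isolates. CPM are not corrected for transcript length, so the levels below compare libraries for a gene and not genes with each other. In whole tissue, fewer cells of a type and less RNA per cell cannot be told apart.

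**Figure D1:**
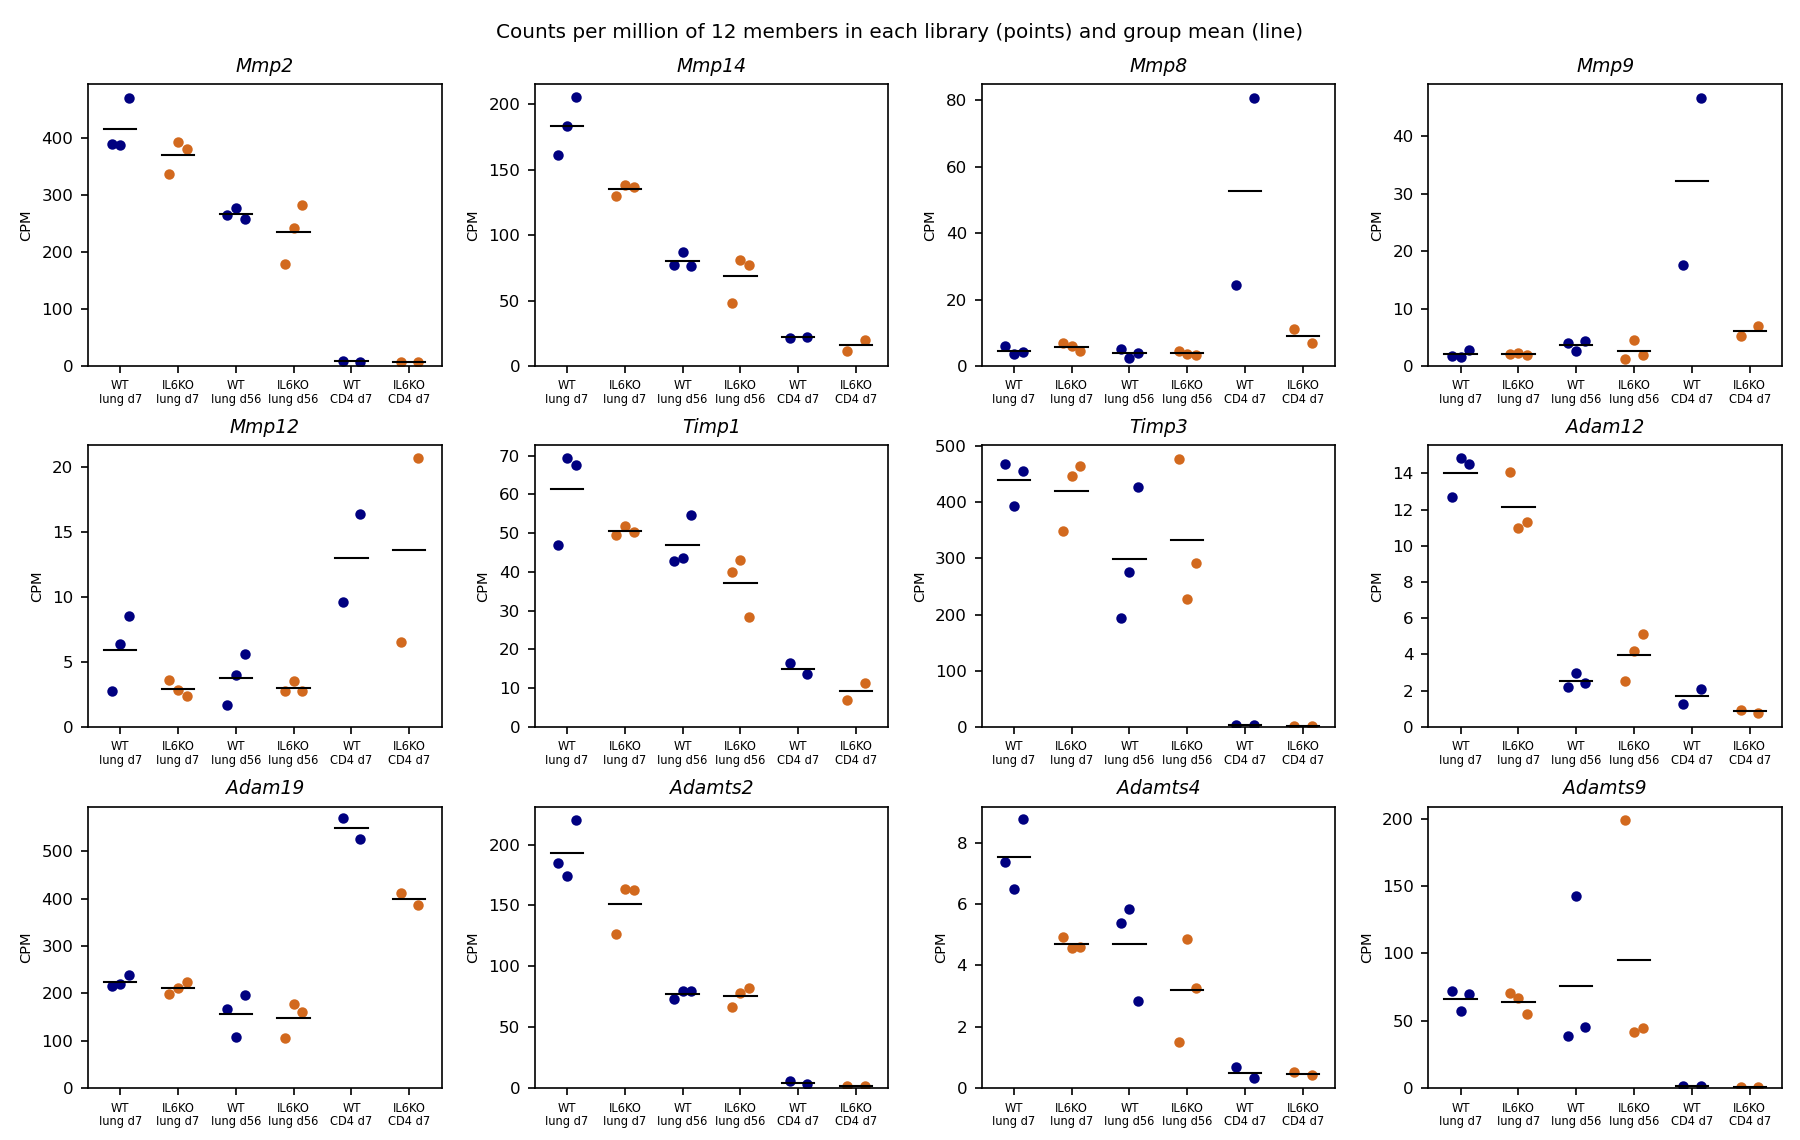
Level (CPM, linear axes from 0, different in each panel) of 12 metalloproteinase and inhibitor genes in each library, with a line at the group mean (3 libraries per lung group, 2 per CD4 group). Mmp14, Adam12 and Adamts2 were lower in all 6 day 56 lungs than in all 6 day 7 lungs, and Mmp8, Mmp9 and Adam19 were higher in all 4 CD4 isolates than in all 12 lungs. For Mmp8 the lowest isolate and the highest lung were nearly equal.

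The lungs differed most between the days. In WT lung 16 of the 45 members tested were lower at day 56 than at day 7 and 0 were higher, where 8.05% of all genes tested were called lower and 6.72% higher (edgeR's quasi-likelihood test, Benjamini-Hochberg adjusted p under 0.05 over all genes tested). In IL6KO lung 11 members were lower and 1 was higher, against 4.92% and 3.4% of all genes, and 14.8% (WT) and 8.32% (IL6KO) of all genes were called in either direction. Without overlap between the days, 23 members were lower and 3 higher in WT lung, against 15% and 17.2% of all genes (32.2% in all), and 18 were lower and 2 higher in IL6KO lung, against 12.2% and 17.7% (29.9% in all). All 11 genes lower in IL6KO lung were among the 16 lower in WT lung, which is 11 of 11 and 11 of 16. Both comparisons come from 1 fit of the same count tables. The matching share over all genes was not computed, so this overlap is not read as particular to the members. The median log2 difference over the members tested was -0.37 in WT and -0.33 in IL6KO lung, against 0.01 and 0.03 over all genes tested. Without the third WT library of day 56, 20 members were lower and 1 higher in WT lung, where 26.1% of all genes tested were called in either direction. All 16 members called with every library were among these 21, with log2 changes from -2.48 to -0.30, and the other 5 were Adam10, Adam19, Adamts6 and Mmp19 (lower) and Adamts15 (higher). The IL6KO comparison of the days uses the same fit. Without that WT library it called 13 members and 1666 genes, against 12 and 1153 with every library. The 2 days come from separate count tables that share 20230 of 22081 symbols, so the day cannot be told apart from the table.

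The gelatinase Mmp2, its membrane-bound activator Mmp14 and the inhibitor Timp2 fell together. Mmp14 stood at 162, 183 and 205.5 CPM in WT lung at day 7 and at 77.5, 87.2 and 76.0 CPM at day 56. In IL6KO lung it stood at 129.9, 138 and 137 CPM at day 7 and at 48.4, 81.2 and 77.0 CPM at day 56. The days did not overlap in either genotype, and the fall was -1.22 (SE 0.15, adjusted p = 0.000165) on the log2 scale in WT and -1.02 (SE 0.15, adjusted p = 0.00102) in IL6KO lung.

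Mmp2 went from 389.7, 387 and 469.9 CPM to 264, 276 and 257 CPM in WT lung. In IL6KO lung it went from 337, 392 and 380.3 CPM to 178, 241 and 283 CPM. Every day 56 lung was below every day 7 lung, with log2 changes of -0.67 (SE 0.14, adjusted p = 0.006) in WT and -0.70 (SE 0.14, adjusted p = 0.00652) in IL6KO.

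Timp2 was at 391.9, 389 and 411 CPM in WT lung at day 7 and at 329.5, 325.5 and 319.5 CPM at day 56. Its IL6KO values were 377, 400.5 and 418 CPM at day 7 and 339, 315 and 326 CPM at day 56. The change was small and without overlap, at -0.32 in WT (adjusted p = 0.0145) and -0.33 in IL6KO lung (SE 0.08, adjusted p = 0.0189), and the IL6KO call was lost without the third IL6KO library of day 7 (0.06) or without the second (0.0732) or the third (0.0566) of day 56. The WT call was lost without the third WT library of day 7 (0.0521).

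Among the other membrane-anchored MMPs, Mmp17 fell from 29.2, 30.4 and 29.2 CPM to 14.4, 13.4 and 11.5 CPM in WT lung. Its IL6KO values were 23.5, 21.6 and 26.1 CPM at day 7 and 13.8, 15.8 and 14.1 CPM at day 56. The log2 changes were -1.20 (SE 0.11, adjusted p = 1e-05) and -0.75 (SE 0.11, adjusted p = 0.000794). Mmp15, Mmp16 and Mmp24, also membrane-anchored, did not pass the test in either genotype, with log2 differences between -0.22 and 0.13. Mmp23, a membrane-bound MMP without the usual anchor, fell by 1.09 in WT (adjusted p = 0.00186) and by 0.72 in IL6KO lung (adjusted p = 0.0323), and Mmp28, a secreted MMP also called epilysin, fell by 1.11 (adjusted p = 0.00125) and by 0.88 (adjusted p = 0.0066). The IL6KO call of Mmp23 was lost with the replicate number as a block (0.0599), without the second (0.131) or the third (0.0786) IL6KO library of day 7, and without the second (0.0763) or the third (0.123) of day 56.

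Mmp8, Mmp9 and Mmp12, secreted MMPs of leukocytes, were not called between the days. Mmp8, neutrophil collagenase, ran from 3.56 to 6.96 CPM in the 6 day 7 lungs and from 2.39 to 5.03 CPM in the 6 day 56 lungs. Mmp9, gelatinase B, stood at 1.80, 1.61 and 2.80 CPM in WT lung at day 7 and at 4.05, 2.61 and 4.37 CPM at day 56, and at 2.08, 2.32 and 1.84 against 1.25, 4.44 and 1.97 CPM in IL6KO lung. Mmp12, macrophage elastase, ran from 2.40 to 8.52 CPM at day 7 and from 1.66 to 5.62 CPM at day 56. Its WT difference was -0.71 with all libraries and -1.07 without the third WT library of day 56 (adjusted p = 0.0967). For these 3 genes the days overlapped in both genotypes and no call was made, with adjusted p from 0.192 to 0.994 over all libraries. Mmp7, matrilysin, had at most 6 counts in any lung library.

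Of the inhibitors, Timp2 alone was called. Timp1, a broad inhibitor that is induced in injured tissue, was at 46.8, 69.5 and 67.6 CPM in WT lung at day 7 and at 42.8, 43.5 and 54.6 CPM at day 56. In IL6KO lung it was at 49.5, 51.7 and 50.4 CPM and then at 40.1, 43.0 and 28.4 CPM. The days overlapped in WT and not in IL6KO lung, and the differences of -0.42 (adjusted p = 0.125) and -0.49 (adjusted p = 0.116) were not called. Timp3, the matrix-bound inhibitor, spread from 349 to 468 CPM over the 6 day 7 lungs and from 194 to 477 CPM over the 6 day 56 lungs, and its WT difference of -0.58 (adjusted p = 0.23) was -0.92 without the third WT library of day 56 (adjusted p = 0.0508). Timp4 ran from 1.95 to 3.32 CPM at day 7 and from 2.57 to 4.09 CPM at day 56, with overlap in IL6KO lung and none in WT, where the difference of 0.65 was not called (adjusted p = 0.0865). The gene spans of Timp1, Timp3 and Timp4 overlap those of Syn1, Syn3 and Syn2 in the annotation. The strand used in counting is not given in the sources used here, and whether a pair shares reads was not examined.

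Among ADAM genes, Adam12 showed the largest called fold of the members in both genotypes. Adam12, a sheddase of growth factors that is expressed in activated mesenchymal cells, was at 12.7, 14.8 and 14.5 CPM in WT lung at day 7 and at 2.18, 2.96 and 2.43 CPM at day 56. In IL6KO lung it was at 14.1, 11.0 and 11.3 CPM and then at 2.55, 4.21 and 5.15 CPM. The log2 changes were -2.49 (SE 0.22, adjusted p = 7.78e-06) and -1.65 (SE 0.21, adjusted p = 0.000284), with no overlap between days.

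Adam15, an ADAM of endothelial and smooth muscle cells, went from 214.5, 224 and 251.9 CPM to 143, 148 and 151 CPM in WT lung and from 194, 191 and 212 CPM to 146, 132 and 98.0 CPM in IL6KO lung. It fell by 0.67 (adjusted p = 0.00499) and by 0.70 (adjusted p = 0.00551). Adam8, an ADAM of leukocytes, was the only member called higher at day 56. In IL6KO lung it was at 73.0, 76.0 and 100.1 CPM at day 7 and at 137, 138 and 139 CPM at day 56, a rise of 0.69 (SE 0.13, adjusted p = 0.00556). In WT lung it was at 99.2, 72.1 and 77.3 CPM and then at 112, 109.5 and 113 CPM, also without overlap, where the difference of 0.40 was not called (adjusted p = 0.0609). The difference between the genotypes in this change was 0.29 (SE 0.18, adjusted p = 0.744).

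The main sheddases Adam10 and Adam17, which cut Notch receptors, TNF and the IL-6 receptor, were not called. Adam10 was at 169, 164 and 153.5 CPM in WT lung at day 7 and at 119, 124 and 154.5 CPM at day 56, with 169, 173 and 142 against 152, 156 and 159.8 CPM in IL6KO lung. Adam17 was at 247, 265 and 245 CPM and then at 222, 232 and 200.2 CPM in WT lung, with 245, 249 and 219.9 against 200.2, 254.5 and 241 CPM in IL6KO lung. The differences ran from -0.33 (Adam10 in WT, adjusted p = 0.0511) to -0.08 (Adam17 in IL6KO, adjusted p = 0.673). Without the third WT library of day 56, Adam10 was called in WT lung (adjusted p = 0.00407). Adam19 spread from 106 to 195 CPM at day 56 and from 199 to 238 CPM at day 7, and its differences of -0.55 and -0.56 were not called (adjusted p = 0.0831 and 0.115). The WT difference was -0.74 and was called without the third WT library of day 56 (adjusted p = 0.0222).

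In the ADAMTS family, the procollagen N-proteinase Adamts2 fell and its relatives Adamts3 and Adamts14 were not called. Adamts2 was at 185, 174 and 220.4 CPM in WT lung at day 7 and at 73.0, 79.9 and 79.7 CPM at day 56. In IL6KO lung it was at 127, 164 and 162.5 CPM and then at 66.8, 78.0 and 82.1 CPM. Its log2 changes were -1.35 (SE 0.12, adjusted p = 8.39e-06) and -1.04 (SE 0.12, adjusted p = 0.00011). Adamts14 differed by 0.01 in WT (adjusted p = 0.983) and by -0.37 in IL6KO lung (adjusted p = 0.253).

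The closely related pair Adamts7 and Adamts12, which cut cartilage oligomeric matrix protein, fell in both genotypes. Adamts12 was at 87.7, 66.9 and 73.4 CPM in WT lung at day 7 and at 28.6, 27.3 and 30.2 CPM at day 56, with 65.4, 84.8 and 64.2 against 26.2, 26.3 and 29.5 CPM in IL6KO lung. The 6 day 56 lungs lay within 26.2 to 30.2 CPM, and the log2 changes were -1.43 (SE 0.12, adjusted p = 5.09e-06) and -1.42 (SE 0.12, adjusted p = 6.81e-06). Adamts7 fell by 1.14 in WT (SE 0.16, adjusted p = 0.00035) and by 1.00 in IL6KO lung (SE 0.16, adjusted p = 0.00139).

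The versican- and aggrecan-cutting proteases Adamts1, Adamts4, Adamts5, Adamts8, Adamts9 and Adamts15 were not called between days in either genotype with all libraries. Adamts15 differed by 0.27 in WT lung (adjusted p = 0.288) and by 0.44 without the third WT library of day 56, where it was called (adjusted p = 0.0281). Adamts1 ran from 104 to 142 CPM at day 7 and from 105 to 149.6 CPM at day 56. Adamts9 was even at day 7, from 54.7 to 72.0 CPM, and split at day 56, where it was at 143 CPM in the second WT and 199 CPM in the first IL6KO library and at 38.6 to 45.2 CPM in the other 4. Adamts4 was at 7.39, 6.49 and 8.77 CPM in WT lung at day 7 and at 5.40, 5.84 and 2.84 CPM at day 56.

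The 5 members called in WT lung only were Adam9, Adam28, Adamts17, Adamts18 and Adamts19, with log2 changes from -0.37 to -2.16. None of them was called with all libraries in the test of the genotype difference, so they are not shown to differ between WT and IL6KO. The call of Adamts17 was kept under all 16 alternatives. The calls of Adam9 (0.106 and 0.0947), Adam28 (0.0976 and 0.132), Adamts18 (0.134 and 0.119) and Adamts19 (0.114 and 0.11) were lost, among other fits, without the second WT library of day 7 and without the first of day 56. Adamts18 and Adamts19 stood at or below 1.40 CPM in every WT lung.

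**Figure D2:**
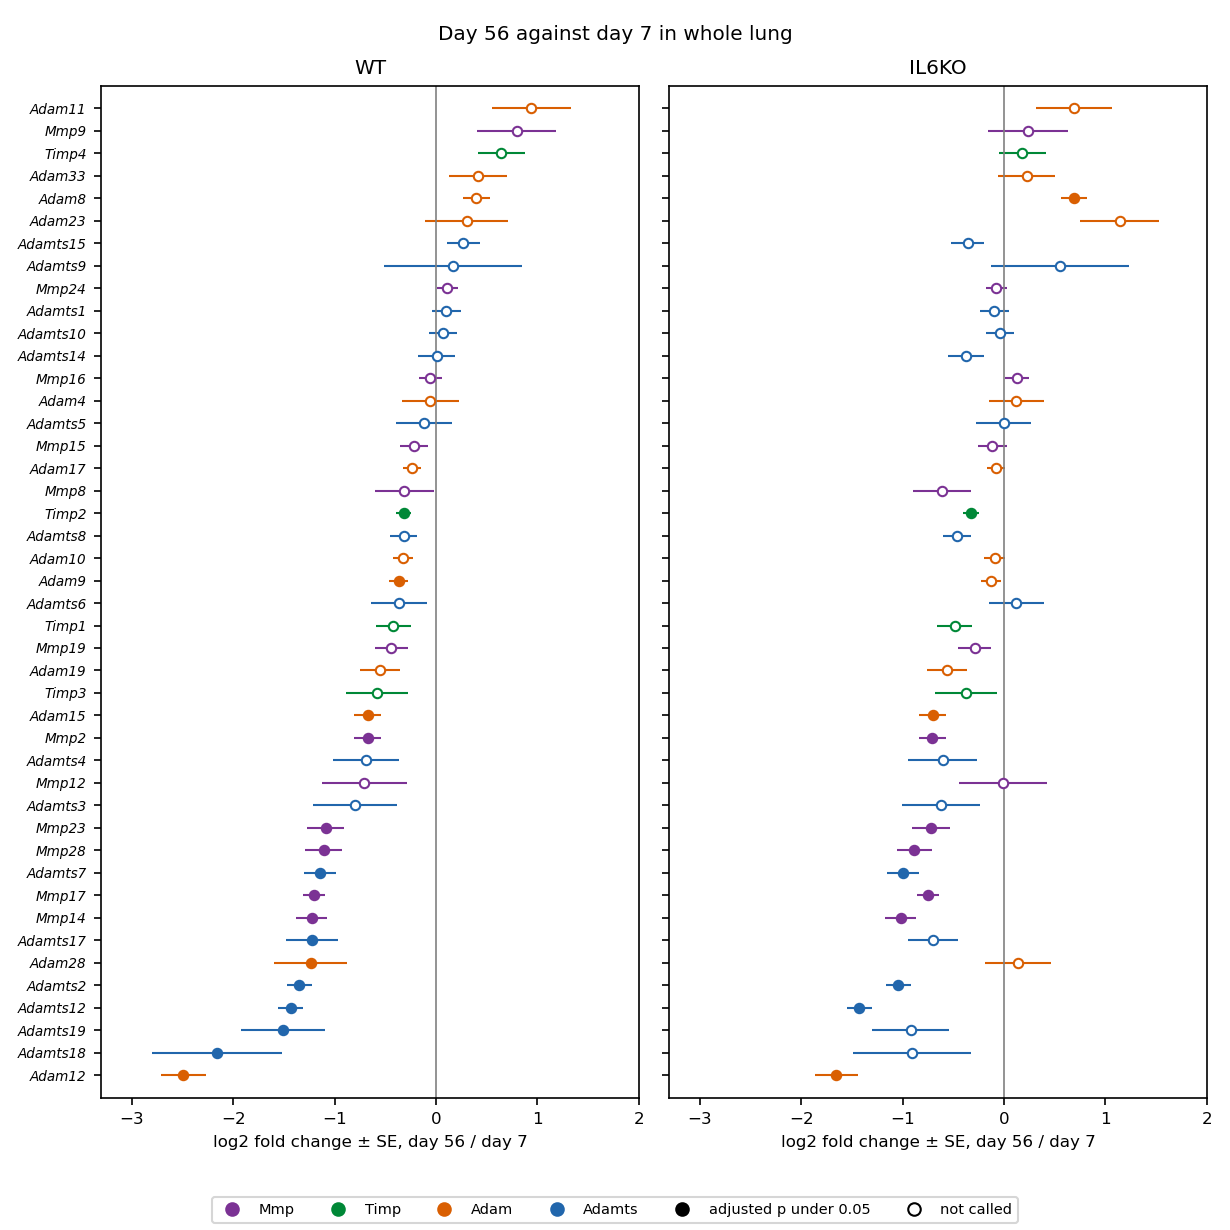
Log2 fold change of day 56 over day 7 with its standard error for 44 members in WT (left) and IL6KO (right) whole lung, 3 libraries per group, coloured by family, with filled points for an adjusted p under 0.05. Adam12, Adamts12, Adamts2, Mmp14, Mmp17 and Adamts7 lie at or left of -0.75 in both panels, and Adam8 is the filled point right of 0 in the IL6KO panel. Mmp13, whose SE was above 1, is not drawn.

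Substrates and other proteases were read beside the members. Of 28 substrates and binding partners tested, 3 were higher and 13 lower at day 56 in WT lung, and 2 were higher and 12 lower in IL6KO lung. Fibrillar and basement membrane collagens were among those that fell, with Col1a1 at -2.11 and -1.85, Col3a1 at -1.42 and -1.21 and Col4a1 at -1.50 and -1.50 on the log2 scale. Of 32 other proteases and regulators tested, 0 were higher and 7 lower in WT lung, and 2 were higher and 2 lower in IL6KO lung. The higher ones in IL6KO lung were the procollagen C-proteinases Bmp1 (0.51, adjusted p = 0.027) and Tll1 (0.95, adjusted p = 0.0308), and both calls were lost when certain libraries were left out, among them the first IL6KO library of day 7 (0.125 and 0.132).

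Cell type markers also differed between the days. The dividing-cell markers Mki67, Top2a, Ccnb1 and Cdk1 summed to 131 to 230.3 CPM at day 7 and to 48.8 to 66.5 CPM at day 56, and 4 of 4 were called lower in each genotype. The smooth muscle markers summed to 1578 to 1861 CPM at day 7 and 891.4 to 1479 CPM at day 56, with 3 of 4 called lower in each genotype. The fibroblast markers summed to 547 to 688.4 CPM and 425.1 to 599.4 CPM, with 1 of 5 called lower in each. The erythroid markers summed to 2921 to 7500 CPM at day 7 and 260 to 2590 CPM at day 56, with 3 of 3 tested called lower in WT and 1 of 3 in IL6KO lung. The B cell markers went the other way, from 24.7 to 42.6 CPM at day 7 and from 41.2 to 84.5 CPM at day 56, with 4 of 4 called higher in WT and 0 of 4 in IL6KO lung. Of the endothelial, mast cell, airway and cardiac markers at most 1 was called in a direction in either genotype, and none of the neutrophil, macrophage, T cell and alveolar markers was called. The part of all these markers in the members' changes was not tested.

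Between genotypes at day 7, 1 of 45 members was called in whole lung. Mmp14 was lower in IL6KO than in WT lung, at -0.44 on the log2 scale (SE 0.09, adjusted p = 0.0457), with 129.9, 138 and 137 CPM in IL6KO and 162, 183 and 205.5 CPM in WT and no overlap. Of all genes tested 2.09% were called, 0.933% higher and 1.16% lower, so 1 of 45 members lies near the background. The call was lost in 5 of the 6 fits without 1 library, with adjusted p of 0.0542 to 0.147, and was kept only without the first WT library. Without overlap between genotypes 4 members were higher and 8 lower in IL6KO lung, against 8.85% and 9.83% of all genes tested (18.7% in all).

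The members next by p were Adamts4 and Mmp28. Adamts4, an aggrecanase, was at 4.93, 4.59 and 4.60 CPM in IL6KO and 7.39, 6.49 and 8.77 CPM in WT lung, a difference of -0.67 (SE 0.15, adjusted p = 0.0646). Mmp28 was at 21.2, 20.4 and 23.7 CPM in IL6KO and 14.5, 14.7 and 17.4 CPM in WT lung, a difference of 0.49 (SE 0.11, adjusted p = 0.0652). Both differed without overlap and neither was called. The promoter of Adamts4 is shown because it holds a STAT-type match, STAT factors being the ones that act below the IL-6 receptor. It covers the 250 bases before the transcription start in RefSeq's GRCr8, 5′ to 3′, with TTCNNNGAA in capitals, starting 121 bases before the start.
Adamts4, chr13:86202761-86203010, plus strand: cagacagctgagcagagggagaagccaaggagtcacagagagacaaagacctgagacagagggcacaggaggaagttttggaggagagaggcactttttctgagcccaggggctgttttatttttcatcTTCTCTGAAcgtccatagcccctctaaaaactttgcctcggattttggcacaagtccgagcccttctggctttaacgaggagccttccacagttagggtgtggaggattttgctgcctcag

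Promoters were found for 31 of the 46 members described. TTCNNNGAA, which reads the same on both strands, was present in 3 of the 31 (9.68%: Adamts4, Mmp8 and Mmp23) and in 7.52% of 27457 rat promoters of the same length. Mmp28 had a promoter entry and no such match, and Mmp14 had no entry to search. A match is a description and not a binding site.

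Mmp12 and Timp1 depended on the first WT library of day 7. Mmp12 was at 2.80, 6.40 and 8.52 CPM in WT and at 3.62, 2.81 and 2.40 CPM in IL6KO lung, a difference of -1.01 (SE 0.36, adjusted p = 0.243) that was called without the first WT library (0.041). Timp1 was at 46.8, 69.5 and 67.6 CPM against 49.5, 51.7 and 50.4 CPM, a difference of -0.28 (adjusted p = 0.397) that was also called without that library (0.0356). The neutrophil markers, carried mostly by Lcn2 in lung, summed to 399 CPM in the first WT library and to 677 and 716 CPM in the others, against 317 to 349 CPM in IL6KO lung. Of 6 neutrophil genes tested, 3 were higher in IL6KO lung and 3 lower, and 0 were called. S100a8 (0.32), S100a9 (0.28) and Csf3r (0.54) were the higher ones, and Lcn2 (-0.98) was among the lower. The part of these genes in the Mmp12 and Timp1 values was not tested.

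The sheddases and the other inhibitors were not called between genotypes at day 7. Adam17 differed by -0.08 (SE 0.07, adjusted p = 0.709) and Adam10 by -0.01 (SE 0.09, adjusted p = 0.987). Timp2 differed by 0.00 (SE 0.07, adjusted p = 0.989) and Timp3 by -0.06 (SE 0.11, adjusted p = 0.88), while Timp4 differed by 0.29 (SE 0.24, adjusted p = 0.687). Adam8 differed by 0.01 (SE 0.15, adjusted p = 0.991) and Mmp9 by 0.02 (SE 0.26, adjusted p = 0.989).

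Among 32 other proteases and regulators, 0 were higher and 2 lower in IL6KO lung at day 7. One of them was Serpine2, an inhibitor of thrombin and plasminogen activators, which was at 31.6, 38.6 and 32.1 CPM in IL6KO and 47.3, 58.1 and 68.6 CPM in WT lung, a change of -0.77 (adjusted p = 0.0272). Of 27 substrates and partners, the TNF receptor Tnfrsf1b rose (0.55, adjusted p = 0.0401) and the matrix genes Thbs2 (-0.57, adjusted p = 0.0199) and Loxl2 (-0.40, adjusted p = 0.0439) fell. Each of these 4 calls was lost without certain libraries, the highest adjusted p being 0.154. Among the markers, 3 of 4 dividing-cell genes and 1 of 4 smooth muscle genes were called lower in IL6KO lung. Of 5 mast cell genes tested, Tpsb2 (-1.50, adjusted p = 0.0119) and Cpa3 (-1.67, adjusted p = 0.0181) were also called lower. Kit (0.32) and Hdc (0.28) were higher without overlap and not called. The mast cell markers summed to 145.4 to 170.3 CPM in WT and 152.9 to 178.2 CPM in IL6KO lung. The airway gene Scgb3a2 was called higher (0.45, adjusted p = 0.0281). The part of these markers in the members' values was not tested.

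At day 56 no member was called between genotypes. Of 42 members tested 0 passed by edgeR, where 0.0138% of all genes tested were called. At an unadjusted p under 0.05 there were 5 members, against 11.4% of all genes, and DESeq2 called 2 members, against 1.21% of all genes. With the third WT library left out, edgeR called 2 of 44 members, Adam10 and Adam28, against 8.63% of all genes. Without overlap 5 members were higher and 0 lower in IL6KO lung, against 8.94% and 7.25% of all genes (16.2% in all).

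Adam28, an ADAM of lymphocytes and epithelium, was at 5.82, 7.46 and 5.45 CPM in IL6KO and at 1.14, 1.48 and 3.40 CPM in WT lung. The groups did not overlap, and the difference was 1.65 (SE 0.39, adjusted p = 0.383). Without the third WT library, which held the highest WT value, it was 2.22 and was called (adjusted p = 0.0118), and DESeq2 called it with all libraries (0.0165). At day 7 Adam28 was at 6.80, 3.36 and 6.24 CPM in IL6KO and 4.13, 4.54 and 4.79 CPM in WT lung, with overlap.

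Adam8 was at 137, 138 and 139 CPM in IL6KO and 112, 109.5 and 113 CPM in WT lung at day 56, 2 tight groups that differed by 0.29 (SE 0.07, adjusted p = 0.383). Mmp28 was at 10.4, 10.2 and 15.7 CPM in IL6KO and 7.63, 8.14 and 6.11 CPM in WT lung, a difference of 0.71 (SE 0.21, adjusted p = 0.404). Mmp28 was thus higher without overlap in IL6KO lung on both days and was called on neither. Adam10 differed by 0.22 (SE 0.11, adjusted p = 0.462) and was called without the third WT library at 0.34 (adjusted p = 0.0392). Mmp14 differed by -0.24 (SE 0.18, adjusted p = 0.569), with the first IL6KO library lowest. Without the third WT library Adam8 differed by 0.30 (adjusted p = 0.0501), Mmp28 by 0.60 (adjusted p = 0.137) and Mmp14 by -0.28 (adjusted p = 0.418). Cardiac muscle markers summed to 45.5, 111 and 369 CPM in the WT and 288 to 567 CPM in the IL6KO lungs of day 56, and their part was not tested.

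**Figure D3:**
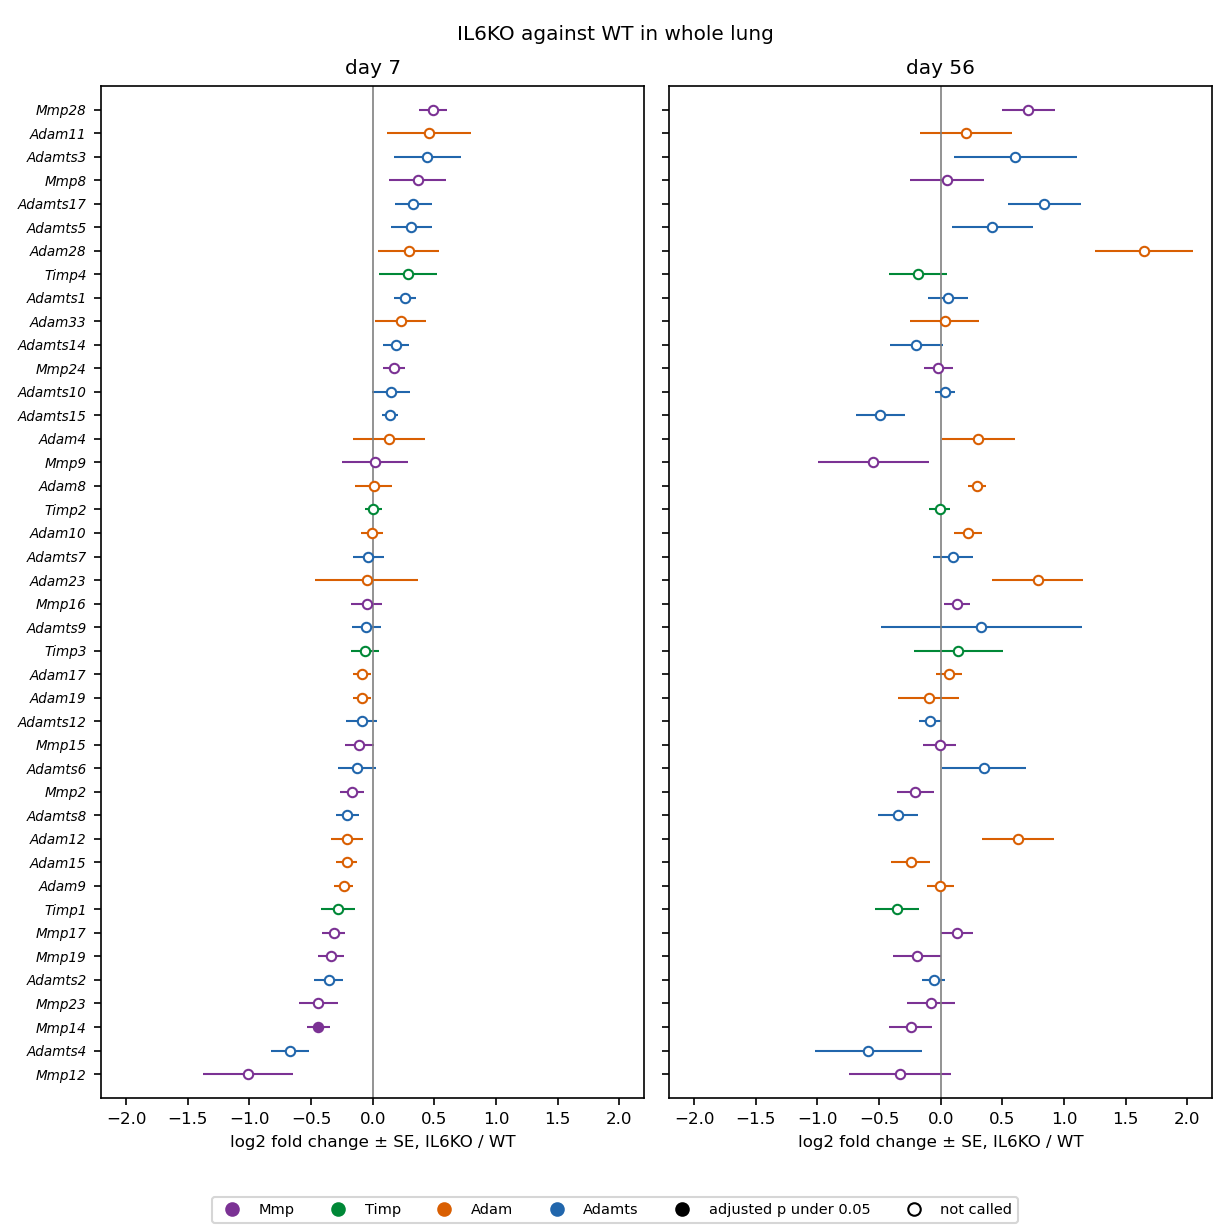
Log2 fold change of IL6KO over WT with its standard error for 42 members in whole lung at day 7 (left) and day 56 (right), 3 libraries per group, coloured by family, filled for an adjusted p under 0.05. Mmp14 at day 7 is the only filled point, and Mmp28 lies right of 0 in both panels (0.49 and 0.71).

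The genotype difference did not change detectably between days for any member. The test of the change in genotype difference called 0 of 45 members and 0% of all genes by edgeR, with 4 members and 1043 genes (7.52%) at an unadjusted p under 0.05 and 0 members and 47 genes (0.339%) called by DESeq2. The 4 members were Mmp17 (0.45, SE 0.15, adjusted p = 0.555), Adam28 (1.37, SE 0.49, adjusted p = 0.583), Adam12 (0.84, SE 0.30, adjusted p = 0.583) and Adamts15 (-0.63, SE 0.23, adjusted p = 0.593). Without the third WT library of day 56, Adam28 (0.0204) and Adamts15 (0.0281) were called, where 4.26% of all genes were called.

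The CD4 isolates held a different set of these genes from whole lung. Averaged over genotypes, 4 of 45 members were higher and 35 lower in CD4 isolates than in day 7 lung, where 39.9% of all genes were called higher and 46.2% lower (86.1% in all). The median log2 difference was -3.36 over the members tested and -0.12 over all genes, so the members' differences are to be read against that shift. Lung and CD4 libraries differ in cell isolation as well as in cell type, which cannot be told apart here.

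The 4 genes higher in the CD4 isolates were Adam19, Mmp8, Mmp9 and Mmp12. Adam19, a membrane sheddase of neuregulins, was at 571, 526, 412 and 387 CPM in the 2 WT and then the 2 IL6KO isolates and at 199 to 238 CPM in the 6 lungs, a difference of 1.36 (SE 0.06, adjusted p = 4.86e-10). Mmp9 was at 17.7, 46.8, 5.29 and 6.97 CPM against 1.61 to 2.80 CPM, a difference of 3.02 (SE 0.28, adjusted p = 2.03e-06). Mmp8 was at 24.4, 80.9, 11.0 and 6.97 CPM against 3.56 to 6.96 CPM, a difference of 2.34 (SE 0.37, adjusted p = 0.000404). Mmp12 was at 9.60, 16.4, 6.55 and 20.7 CPM against 2.40 to 8.52 CPM, overlapping the lungs, with a difference of 1.92 (SE 0.39, adjusted p = 0.00165). Mmp8, Mmp9 and Mmp12 are known as neutrophil and macrophage products. The neutrophil gene S100a9 was at 131 to 601.5 CPM in the isolates and 13.1 to 22.2 CPM in day 7 lung. Of 6 neutrophil genes tested, 4 were called higher and 1 lower in the isolates. The neutrophil markers summed to 389.2 to 1162 CPM in the isolates and 317.1 to 716 CPM in day 7 lung, with overlap. The macrophage gene Csf1r was at 870.0 to 1541 CPM and 278 to 301 CPM, with 5 of 6 macrophage genes called higher and 0 lower. The part of these markers was not tested.

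Promoters of the members higher in the CD4 isolates are shown to set their sequences side by side. They are the 250 bases before the transcription start from RefSeq's GRCr8, 5′ to 3′, with a STAT-type match (TTCNNNGAA) in capitals for Mmp8 and an AP-1-type match (TGANTCA) in capitals for Mmp12 and Adam19. Mmp9 had no entry.
Mmp8, chr8:13008640-13008889, plus strand: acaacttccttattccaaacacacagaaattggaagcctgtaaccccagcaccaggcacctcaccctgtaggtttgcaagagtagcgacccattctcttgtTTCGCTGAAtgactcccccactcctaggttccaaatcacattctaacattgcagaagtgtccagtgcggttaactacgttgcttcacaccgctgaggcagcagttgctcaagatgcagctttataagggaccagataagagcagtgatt
Mmp12, chr8:12866402-12866651, plus strand: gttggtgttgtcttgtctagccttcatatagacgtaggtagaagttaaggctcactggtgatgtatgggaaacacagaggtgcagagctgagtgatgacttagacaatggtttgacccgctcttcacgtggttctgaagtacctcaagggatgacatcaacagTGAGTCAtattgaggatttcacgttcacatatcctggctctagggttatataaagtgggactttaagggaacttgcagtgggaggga
Adam19, chr10:30992511-30992760, plus strand: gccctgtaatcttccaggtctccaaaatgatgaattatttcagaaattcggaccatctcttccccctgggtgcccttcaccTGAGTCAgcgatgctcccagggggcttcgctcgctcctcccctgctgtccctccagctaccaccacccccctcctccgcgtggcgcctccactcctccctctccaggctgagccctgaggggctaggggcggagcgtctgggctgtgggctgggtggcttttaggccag

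TGANTCA, the core that Fos and Jun factors bind, also reads the same on both strands and was found in 4 of the 31 promoters (12.9%), those of Adam19, Mmp7, Mmp12 and Mmp13, against 6.36% of 27457. It started 87 bases before the start in Mmp12, 169 in Adam19, 66 in Mmp13 and 80 in Mmp7, and the STAT-type match of Mmp8 started 149 bases before. Mmp7, Mmp8, Mmp12 and Mmp13 belong to a run of 10 neighbouring Mmp genes in the annotation.

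Most matrix-directed members were far lower in the CD4 isolates. Mmp2 was at 8.31, 7.35, 6.05 and 6.71 CPM in the isolates, a difference of -5.54 (SE 0.11, adjusted p = 2.24e-13) from lung. Timp3 was at 3.60, 2.86, 1.51 and 1.74 CPM, a difference of -7.29 (SE 0.14, adjusted p = 2.3e-13). Of the 16 Adamts genes tested, 15 were lower and 0 higher, with a median of -5.55, and the exception Adamts3 was at 0.59 to 1.55 CPM (adjusted p = 0.874). Adamts12 (-6.58), Adamts8 (-6.15), Adamts9 (-5.89), Adamts15 (-5.75), Adamts2 (-5.66) and Adamts7 (-5.45) had the smallest p among them. Adamts1 was at 5.31, 2.09, 2.02 and 2.61 CPM and Adamts4 at 0.69, 0.31, 0.50 and 0.44 CPM in the isolates, both also called lower. Mmp28 (-6.67) and Mmp17 (-5.06) were called lower among the Mmp genes. Fibroblast markers were at 9.41 to 16.1 CPM in the isolates and 547 to 688.4 CPM in day 7 lung, and their part in these differences was not tested.

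Several other members were lower by smaller folds. Timp1 was at 16.4, 13.5, 6.98 and 11.3 CPM in the isolates (-2.00, adjusted p = 1.89e-07) and Timp2 at 46.9, 50.6, 50.4 and 73.6 CPM (-2.60, adjusted p = 6.49e-11). Timp4 had at most 3 counts in any isolate. Mmp14 was at 21.5, 22.3, 11.5 and 19.9 CPM (-2.84, adjusted p = 9.79e-10) and Adam15 at 37.5, 41.8, 46.4 and 55.7 CPM (-2.00, adjusted p = 1.22e-10).

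The sheddases Adam17, Adam10 and Adam8 differed less from lung. Adam17 was at 128, 129, 133 and 140.2 CPM in the isolates (-0.64, SE 0.06, adjusted p = 5.1e-07). Adam10 was at 115, 118, 121 and 101 CPM (-0.25, SE 0.08, adjusted p = 0.00711), and that call was lost without the second IL6KO isolate (0.0834). Adam8 was at 73.0, 83.5, 60.3 and 69.5 CPM against 72.1 to 100.1 CPM in lung and was not called (0.03, SE 0.11, adjusted p = 0.779). Among their substrates, the IL-6 receptor gene Il6r was at 189 to 291 CPM in the isolates and 45.9 to 69.0 CPM in day 7 lung.

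**Figure D4:**
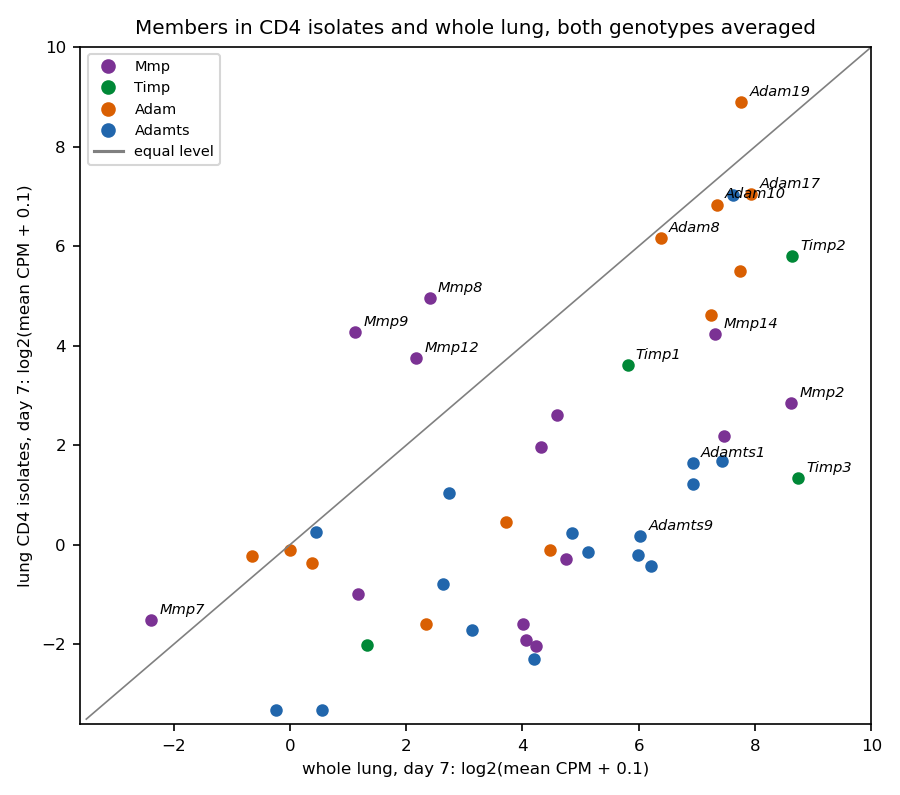
Mean level of each of the 46 members in the 4 CD4 isolates against its mean in the 6 day 7 lungs, both genotypes averaged, as log2(CPM + 0.1), with a line of equal level and colours for the families. Adam19, Mmp8, Mmp9 and Mmp12 lie above the line, Adam8 close to it, and most Adamts genes far below.

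Within the CD4 isolates 1 of 31 members was called between genotypes, where 6.4% of all genes tested were called, 3.5% higher and 2.91% lower. Adam19 was at 571 and 526 CPM in WT and 412 and 387 CPM in IL6KO isolates, a fall of -0.49 (SE 0.09, adjusted p = 0.0212). That call was lost without the first WT isolate (0.173) or the second (0.0835). The T cell genes Cd3d (-0.45, adjusted p = 0.0329), Cd3e (-0.41, adjusted p = 0.0315) and Cd2 (-0.42, adjusted p = 0.03) were also called lower in IL6KO isolates, 3 of 6 T cell markers, whose sum was 2117 and 2160 CPM in WT and 2061 and 1907 CPM in IL6KO isolates. Of these 6 markers, 5 were lower and 1 was higher. The higher one was Cd4, which did not overlap and was not called (0.27, adjusted p = 0.0832). The part of the T cell markers in the Adam19 value was not tested. In day 7 lung Adam19 was at 215, 220.2 and 238 CPM in WT and 199, 211 and 224 CPM in IL6KO, a difference of -0.09 (adjusted p = 0.705).

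The 2 isolates of each genotype did not overlap for 19 members lower and 4 higher in IL6KO, of which 18 and 4 were not called, where 25.2% of all genes were lower and 30.1% higher without overlap (55.4% in all). The median log2 difference was -0.70 over the members tested and 0.00 over all genes.

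Mmp8 and Mmp9 were at 24.4 and 80.9 CPM and at 17.7 and 46.8 CPM in the WT isolates, against 11.0 and 6.97 CPM and 5.29 and 6.97 CPM in IL6KO. The second WT isolate was highest for both, and the differences of -2.57 (SE 0.87, adjusted p = 0.263) and -2.42 (SE 0.65, adjusted p = 0.169) were not called. DESeq2 called both with all isolates (0.0382 and 0.0114). Without the first WT isolate, the WT group is the second isolate alone, so a call there rests on that library. The neutrophil genes S100a8 and S100a9 were also highest there, at 313 and 601.5 CPM, against 113 and 261 CPM in the first WT and 53.1 to 62.1 and 131 to 179 CPM in the IL6KO isolates, and their part was not tested. Mmp7 was counted in the second WT isolate, with 13 counts, and had 0 counts in the other 3.

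Mmp15, Adamts2 and Timp1 were lower in both IL6KO isolates than in both WT isolates and were not called. Mmp15 was at 8.57 and 4.64 CPM in WT and 1.85 and 2.70 CPM in IL6KO isolates, a difference of -1.56 (SE 0.39, adjusted p = 0.0615). Adamts2 was at 5.57 and 3.25 CPM against 1.76 and 1.92 CPM, a difference of -1.28 (SE 0.36, adjusted p = 0.0832). Timp1 was at 16.4 and 13.5 CPM against 6.98 and 11.3 CPM, a difference of -0.74 (adjusted p = 0.141). Without the second IL6KO isolate, the IL6KO group is the first isolate alone, the lower one, so a call there rests on that library. Alveolar epithelial, smooth muscle and fibroblast markers were also lower in the IL6KO isolates. The alveolar markers summed to 1531 and 2168 CPM in WT and 528.7 and 541.7 CPM in IL6KO isolates (4 of 5 called lower). Smooth muscle markers were at 39.4 and 40.5 against 17.0 and 21.0 CPM (3 of 4 called lower). Fibroblast markers were at 16.1 and 13.1 against 9.41 and 9.41 CPM (0 of 5 called). Endothelial markers overlapped, at 50.04 and 54.59 CPM in WT and 38.66 and 57.33 CPM in IL6KO isolates. Of 4 endothelial genes tested, 2 were higher and 2 lower, with 1 called lower. The part of all these markers in the members' values was not tested.

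Adam17 differed by 0.06 (SE 0.08, adjusted p = 0.72) and Adam10 by -0.10 (SE 0.10, adjusted p = 0.618) between the genotypes of the isolates. Of the substrates, Il6r was higher in IL6KO isolates, at 291 and 284 CPM against 200.0 and 189 CPM (0.54, adjusted p = 0.0152), and Col4a1 and Cdh5 were lower (-1.15 and -1.01, adjusted p = 0.00756 and 0.0377). Of 27 other proteases and regulators, the cathepsin Ctsz (0.67, adjusted p = 0.0226) and the inactive rhomboid Rhbdf2, which carries ADAM17 to the cell surface (0.49, adjusted p = 0.0286), were higher and Htra1 was lower (-1.72, adjusted p = 0.0494). All 6 of these calls were lost without the first WT isolate, with adjusted p of 0.0715 to 0.308. Macrophage markers summed to 1576 and 1583 CPM in the WT and 2584 and 2758 CPM in the IL6KO isolates, with 3 of 6 called higher, and their part was not tested.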

How the data were processed

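Rat whole lung and rat lung CD4-positive cells were profiled by RNA-seq, and the mouse spleen table of the series was not used here. The authors deposited raw counts per gene, 1 column per library, per the file headers, and the values are whole numbers with unequal library totals. All columns used were matched to their labels by name (0 left without a sample). The build named in the submitters' processing notes is GRCm38, a mouse build, although the samples are rat. The strand setting, like the aligner, the counter and the annotation, is not given in the sources used here.

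Levels are counts scaled to a library total of 1000000 (CPM). Counts were filtered with filterByExpr, scaled by TMM and tested by quasi-likelihood with edgeR 4.0.16 under R 4.3.3, with robust dispersions. Unless DESeq2 1.42.0 is named, an adjusted p comes from this test, adjusted by Benjamini-Hochberg over every gene of the comparison and called under 0.05. SE denotes the standard error of a log2 difference. Genotypes were compared within day and tissue. The days, and the change in genotype difference, were tested in 1 fit of the 12 lung libraries, and CD4 isolates against lung in 1 fit of the 10 day 7 libraries. The fits were tested on simulated counts.

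Alternatives were RLE size factors, no filter, DESeq2, each library left out in turn, and a block for the replicate number. The genes named were up to 10 called members per direction by smallest p, or the 3 of smallest p where fewer than 3 were called, a fixed set of members, and up to 4 called genes per list. One gene of these lists is counted and not reported by name here. Genes at an unadjusted p under 0.05 in the interaction, and single members that stood out in 1 library, were named after their values were seen. The members, lists and tests were chosen with earlier results of these data known. Promoters come from RefSeq's GRCr8, and the 15 members without an entry were Adam9, Adam11, Adam23, Adam28, Adam33, Adamts5, Adamts8, Adamts15, Adamts19, Mmp2, Mmp9, Mmp14, Mmp16, Mmp17 and Mmp19.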

Additional observations from a re-analysis of the deposited data

How the results depend on the processing

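With 2 or 3 libraries per group, the genotype calls rested on the libraries included. In day 7 lung 1 member was called, with 3 by DESeq2, 2 with the replicate number as a block and 0 to 3 when 1 library was left out, and over all genes 300 were called by edgeR, 565 by DESeq2, 543 with the block and as few as 94 without 1 library. In day 56 lung 0 members were called, with 2 by DESeq2 and 0 to 2 when 1 library was left out, and over all genes 2 by edgeR, 175 by DESeq2, 7 without a filter, 0 with the block and 1268 without the third WT library. In the CD4 isolates 1 member was called, with 2 without a filter, 4 by DESeq2 and 3 with the block. Over all genes 784 were called, with 1164 without a filter, 873 by DESeq2 and 1084 with the block. The calls also varied with the isolate left out, where 1 library remains in a group, so those counts are not given. The interaction called 0 members, with 0 to 2 when 1 library was left out, and 0 genes in all, 47 by DESeq2 and 597 without the third WT library of day 56.

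Between days 16 members were called in WT lung (12 to 21 when 1 library was left out) and 12 in IL6KO lung (10 to 14), over all genes 2048 (from 1235 without the second WT library of day 7 to 3656 without the third of day 56) and 1153 (706 and 704 without the first or second IL6KO library of day 7). Between CD4 isolates and lung 39 were called (37 to 41). Among the members of smallest p, up to 10 per direction, all 10 in WT lung and 10 of 11 in IL6KO lung kept their call under all 16 alternatives. Timp2 in IL6KO lung kept it under 13 and Mmp23 under 11. Of the other 6 called in WT lung, Adamts17 kept it under 16, Timp2 under 15, Adam9 under 13, Adamts19 under 11, Adamts18 under 10 and Adam28 under 9. Of 1736 values of single genes under an alternative, 113 lost a call, 31 gained one and 17 changed direction, all 17 in differences near 0 that were not called and when 1 library was left out. In day 7 lung, the genotype difference then ran from -0.15 to 0.29 for Mmp9, -0.034 to 0.036 for Timp2, -0.145 to 0.048 for Timp3, -0.15 to 0.15 for Adam8 and -0.052 to 0.075 for Adam10. In the CD4 isolates it ran from -0.23 to 0.026 for Adam10, and the difference of the isolates from lung ran from -0.033 to 0.15 for Adam8.

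The labels name no pairing by replicate number, and with 2 or 3 libraries per group the deviations cannot exclude one. Deviations of same-numbered lungs correlated at 0.06, 0.08 and 0.26 at day 7 and at -0.16, -0.07 and -0.03 at day 56. Not every library correlated best with its own number. In the CD4 isolates the correlation was 0.00, where 2 isolates per group give the same value up to its sign for every pair. When a library is left out of a group of 2, the lone sample is assumed to vary like the other group. Members under a few CPM, such as Mmp7, Mmp13, Adamts18 and Adamts19, rest on few counts.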

Other observations

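Mmp13, a collagenase of mesenchymal cells, was present in some lungs and nearly absent in others of the same group. At day 7 it had 57, 4 and 1 counts in WT and 0, 79 and 79 counts in IL6KO lung. At day 56 it had 0, 1 and 1 counts in WT and 1, 54 and 187 counts in IL6KO lung. The SE of its genotype difference at day 7 was 1.70 on the log2 scale, and it was not called (adjusted p = 0.841 by edgeR's quasi-likelihood test).

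Adamts9 and Timp3 each varied between libraries at day 56 more than at day 7. The SD of Adamts9 was 58.3 CPM in WT and 90.3 CPM in IL6KO lung at day 56 (n = 3 each), against 8.06 and 8.32 CPM at day 7. The SD of Timp3 was 118 and 130 CPM at day 56, against 40.4 and 62.3 CPM at day 7. In the IL6KO group the first library was highest for both genes, at 199 CPM for Adamts9 and 477 CPM for Timp3, and lowest for Mmp2, Mmp14 and Adamts2, at 178, 48.4 and 66.8 CPM.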
